A study of Mus musculus with 9 samples.

Results

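Long non-coding RNAs (lncRNAs) are transcripts without a recognised protein-coding frame. Many carry small nucleolar RNAs (snoRNAs) or microRNAs in their introns or exons, which are cut out and act on their own, and others are transcribed beside or antisense to a protein-coding gene and can act on that neighbour. In the colon they are known from epithelium, from stroma and from the immune cells that enter the wall during colitis. The 200 lncRNA loci described here were selected on measured values, as those with the largest counts summed over all 9 libraries among the 734 loci that the deposited annotation typed as known or new lncRNA genes, out of 27719 genes and loci in all. No correction was made for transcript length, and rank and level are a description.

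The colon of C57BL/6J mice was read as full-length cDNA on a Nanopore sequencer, with 3 mice in each of 3 groups. The control group drank water, the DSS group drank 2.5% dextran sodium sulfate, a chemical that injures the colon epithelium, for 7 days, and the DSS + EA group drank the same DSS and also received electroacupuncture (EA) at the ST36 point. EA began after 5 days of modeling, with daily sessions of 30 minutes on 5 days (2 Hz, 0.2 mA). Control and DSS mice were held in the frame for as long but were not needled, so needling and current cannot be told apart. Each library was labelled as a separate mouse.

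The libraries held 2627695 to 4235576 counts. Colonocyte markers summed to 18841 to 38945 CPM (counts scaled by library totals that were adjusted by TMM) in control mice, to 2395 to 12915 in DSS mice and to 22943 to 28978 in DSS + EA mice. Neutrophil markers summed to 22.6 to 160 CPM, 4581 to 27736 CPM and 1211 to 1600 CPM in the same order, and DSS mouse 1 had the lowest neutrophil sum and the highest colonocyte sum of its group. Pancreatic acinar markers summed to 38057 and 18355 CPM in DSS + EA mice 2 and 3 and to at most 963 CPM in the other libraries. Whether a change came from a different number of cells or from a different amount of RNA per cell cannot be told apart in these bulk samples.

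Of the 200 loci, 133 were typed as known and 67 as new. An Ensembl identifier, and with it a position in GENCODE M21 (GRCm38), was given for 106 loci, of which 39 are annotated as lincRNA, 32 as antisense, 30 as processed transcript and 5 as bidirectional promoter lncRNA. A further 27 loci carried a NONCODE identifier only, and those and the 67 new loci have no name or position in the table and are given by their ONT number. Summed counts ran from 141 to 33733 with a median of 291, and the 200 loci held 90.2% of all counts on lncRNA loci. The last locus inside the limit (ONT.7757) and the first outside it (ONT.8508) had the same sum of 141 counts. Of the members, 165 would also rank among the first 200 by control counts alone, 155 by DSS counts alone and 170 by DSS + EA counts alone. Of 27 listed lncRNAs of nuclear bodies and chromatin architecture none was among the members. The list was matched to the members only. Whether its transcripts are in the deposited table under another gene type or at a lower rank was not checked.

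Mir22hg and Mir142hg are transcripts from which microRNAs are cut, miR-22 from a widely expressed gene and miR-142 from a gene of blood cells. Their mature sequences are shown because these are the products through which both loci are best known, with the seed (bases 2 to 8 from the 5′ end), the part that pairs with targets, in capitals. The sequences are those of RefSeq on GRCm38.p6, and the pairs lie on the plus strand of chromosome 11. The 4 seeds are all different.
mmu-miR-22-5p: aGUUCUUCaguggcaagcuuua
mmu-miR-22-3p: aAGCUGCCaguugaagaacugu
mmu-miR-142a-5p: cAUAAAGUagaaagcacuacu
mmu-miR-142a-3p: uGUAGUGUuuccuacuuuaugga

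The snoRNA hosts were the largest group with a shared function. Transcripts of this kind often begin with a run of C and T, the 5′ terminal oligopyrimidine tract, which ties translation and decay to growth signals. Of the 19 members that hold an annotated snoRNA, 17 had a RefSeq start window on GRCm38.p6. A C followed by at least 4 more C or T bases, beginning within 5 bases of the annotated start on the transcribed strand, was present in 7 of those 17 (41.2%), in 15 of 61 other members with a window (24.6%) and in 18.5% of all 27025 promoters. No such tract was found in Gas5, Zfas1, Snhg1, Snhg5, Snhg20, Snhg15, Dancr, Snhg17, 2900076A07Rik or Rian. The search depends on the annotated start. The Gas5 window (chr1:161034571-161034620) does not hold its GENCODE start (161034422), and other starts were not searched. The windows below run from 30 bases before the start to 20 bases from it on, for 6 of the hosts described in the results. The tract is in capitals where the search found one.
1110038B12Rik (chr17:34952452-34952501, minus strand): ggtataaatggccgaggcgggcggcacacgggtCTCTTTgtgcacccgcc
2410006H16Rik (chr11:62602847-62602896, plus strand): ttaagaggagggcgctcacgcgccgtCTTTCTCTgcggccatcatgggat
Snhg8 (chr3:123508317-123508366, minus strand): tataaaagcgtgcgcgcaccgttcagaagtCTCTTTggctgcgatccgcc
Snhg10 (chr12:105032260-105032309, minus strand): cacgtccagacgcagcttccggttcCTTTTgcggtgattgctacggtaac
Snhg5 (chr9:88522878-88522927, minus strand): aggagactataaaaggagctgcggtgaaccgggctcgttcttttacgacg
Snhg20 (chr11:117076753-117076802, plus strand): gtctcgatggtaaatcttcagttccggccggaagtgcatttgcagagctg

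The first comparison asked what DSS did to these transcripts. Compared with the control group, 41 of the 198 tested members (20.7%) were higher in the DSS group and 66 (33.3%) were lower at an adjusted p under 0.05 in edgeR, against 21.5% and 19.5% of all 12566 genes and loci tested. The median log2 fold change (log2FC) of the tested members was −0.29, against 0.02 over everything tested, and the median size of the change in either direction was 1.30 against 0.71. With the study's own thresholds (log2FC beyond 2.5 and unadjusted P under 0.01), 49 members (24.7%) passed, against 10.2% of all. Among members with an Ensembl identifier 23 were higher and 31 lower of 106, among those with a NONCODE identifier only 3 and 12 of 27, and among new loci 15 and 23 of 65. A locus that is high in 1 group alone can enter by that group, and 6 members had at most 3 counts in every control library. Leaving out 1 library moved the counts to between 30 and 43 higher and between 47 and 74 lower.

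**Figure D1:**
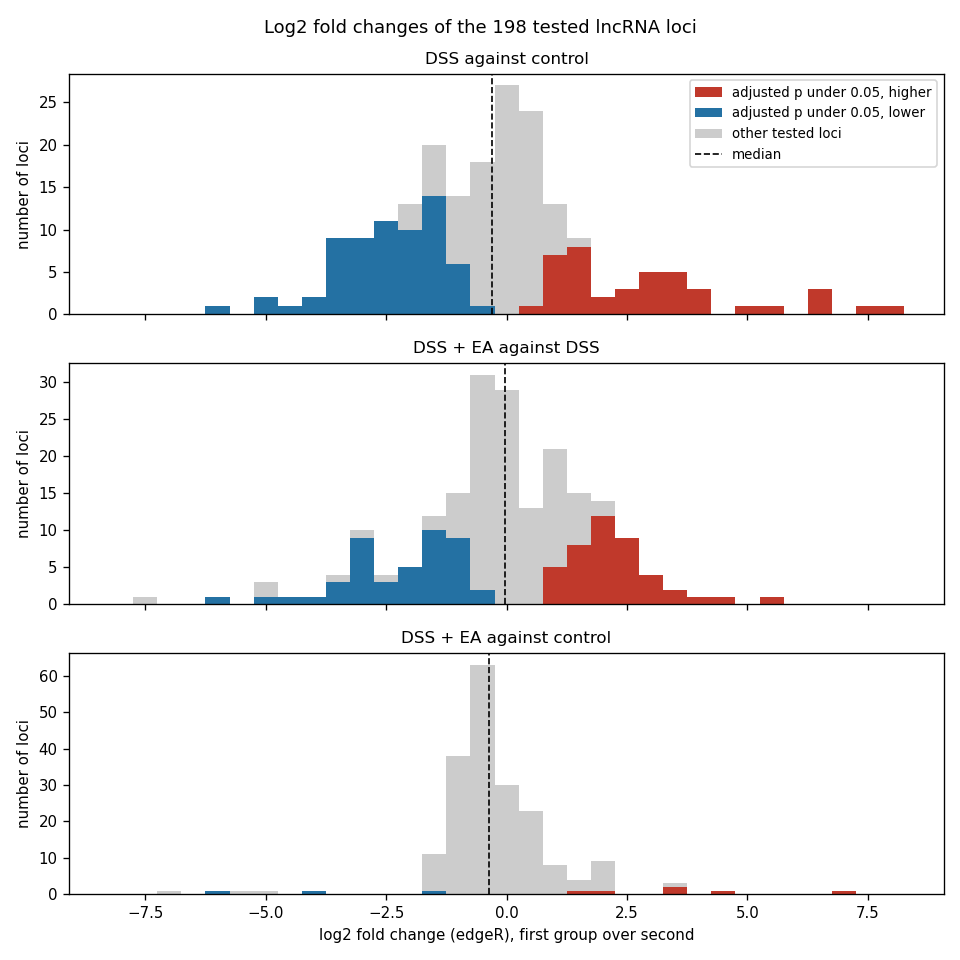
Histograms of the log2 fold changes of the 198 tested lncRNA loci in each comparison, in steps of 0.5, with loci at an adjusted p under 0.05 in red (higher) and blue (lower) and the median as a dashed line. In DSS against control more loci lie in blue (66) than in red (41), and in DSS + EA against control 9 loci are coloured.

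ONT.4367, a new locus and the most counted of all, had 50, 41 and 58 counts in control mice, 6685, 11197 and 13802 in DSS mice and 610, 819 and 471 in DSS + EA mice. Every DSS mouse lay far above every other mouse, and every DSS + EA mouse above every control mouse. The log2FC was 7.52 ± 0.47 (SE) for DSS against control, a 184-fold rise (adjusted p = 1.21e-05), and −3.79 ± 0.39 for DSS + EA against DSS (adjusted p = 0.000359). DSS + EA mice stayed 13.2-fold above control mice (log2FC 3.73 ± 0.40, adjusted p = 0.00227). ONT.12766, a NONCODE locus, had the same order of groups, with 45 to 47 counts in control mice, 2619 to 6796 in DSS mice and 429 to 564 in DSS + EA mice. Its log2FC was 6.39 ± 0.49 with DSS, −2.87 ± 0.41 for DSS + EA against DSS and 3.52 ± 0.43 for DSS + EA against control, each past the threshold. Between groups these values moved in the order of the neutrophil marker sums given above. Mean fibroblast sums (809 CPM in control, 1696 in DSS + EA and 5384 in DSS mice) had the same order, as had macrophage and monocyte sums (584, 1225 and 2310). In DSS mice 1 to 3 the ONT.4367 counts had the same order as the neutrophil sums (4581, 25264 and 27736 CPM). Fibroblast sums (4193, 5056 and 6903 CPM) and macrophage and monocyte sums (1654, 2069 and 3207 CPM) had that order too. Within the control and DSS + EA groups the order of the neutrophil sums differed. Control mouse 3 and DSS + EA mouse 2 had the lowest neutrophil sums of their groups (22.6 and 1211 CPM) and the most ONT.4367 counts (58 and 819). The part of any of these cells was not tested.

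The share of all counts that fell on the 200 loci was 0.758%, 0.791% and 0.700% in control mice, 0.910%, 0.948% and 1.19% in DSS mice and 0.585%, 0.519% and 0.608% in DSS + EA mice. No 2 groups overlapped, and each exact two-sided permutation test gave p = 0.1, the smallest that 3 against 3 mice allow. The loci were chosen on these same counts, and a locus high in 1 group can enter by that group. The shares and their p-values are therefore a description only. Without ONT.4367 the mean share was 0.748% ± 0.0468 (SD, n = 3) in control mice, 0.717% ± 0.0446 in DSS mice and 0.550% ± 0.0534 in DSS + EA mice. The control and DSS groups then overlapped (difference −0.0307 percentage points, exact permutation p = 0.5), while DSS + EA mice still lay below both other groups (p = 0.1 each). Without ONT.4367 and ONT.6566 together, DSS mice were 0.108 percentage points above control mice (exact permutation p = 0.2).

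**Figure D2:**
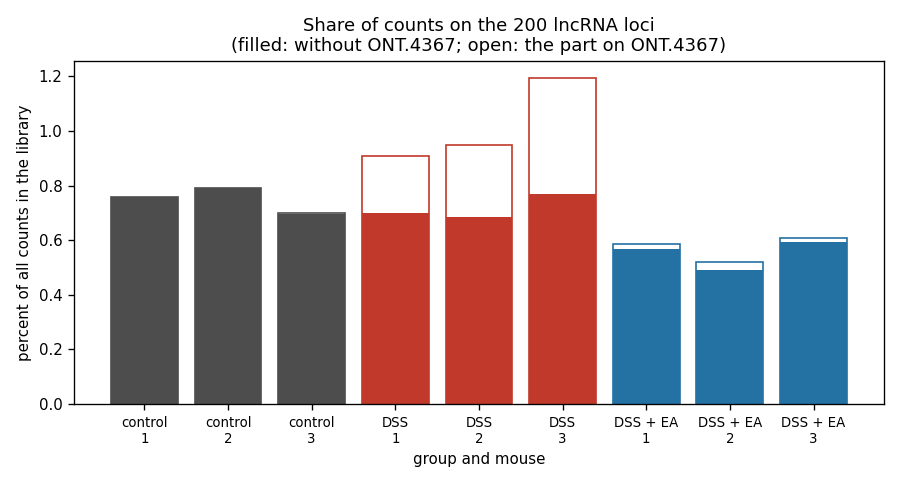
Percent of all counts in each library that fell on the 200 lncRNA loci, with the part on ONT.4367 left open and the rest filled. The open part is large in the 3 DSS mice, small in the DSS + EA mice and hardly visible in control mice.

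Among named loci, the rises with DSS included transcripts of myeloid cells. Gm14005 (chr2:128178319-128502765, GRCm38), known as Morrbid, prolongs the life of neutrophils, eosinophils and monocytes by repressing its neighbour Bcl2l11, a gene that promotes cell death. It had 14, 12 and 5 counts in control mice, 68, 236 and 235 in DSS mice and 15, 15 and 20 in DSS + EA mice. DSS mouse 1 was the lowest of its group and still above all others. The log2FC was 3.91 ± 0.47 with DSS (adjusted p = 0.000254) and −3.14 ± 0.44 for DSS + EA against DSS (adjusted p = 0.00104). Bcl2l11, 15772 bp away on the other strand, rose by a log2FC of 1.52 ± 0.39 with DSS (adjusted p = 0.0116) and was lower by 2.42 with EA (log2FC −2.42 ± 0.42, adjusted p = 0.00255).

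Mir22hg (chr11:75461539-75466676) had 88, 45 and 60 counts in control mice, 294, 507 and 313 in DSS mice and 68, 111 and 48 in DSS + EA mice. The DSS group lay apart from both others, which overlapped. Its log2FC was 2.32 ± 0.35 with DSS (adjusted p = 0.000797) and −1.97 ± 0.34 for DSS + EA against DSS (adjusted p = 0.00259). Mir142hg (chr11:87755577-87757270) had 14, 20 and 4, then 33, 166 and 200, then 20, 18 and 25 counts in the same order, with a log2FC of 3.19 ± 0.63 (adjusted p = 0.00342) and −2.39 ± 0.60 (adjusted p = 0.0128). DSS mouse 1 was again the lowest of the DSS mice. These values are of the host transcripts, and the mature microRNAs of 21 to 23 bases shown above were not measured by them. Carmn, a smooth muscle transcript beside miR-143 and miR-145, passed the test upward with DSS (log2FC 1.01 ± 0.34, adjusted p = 0.0382) and downward with EA (−1.57 ± 0.36, adjusted p = 0.0084). The first of these calls was lost in 8 of 9 fits that left out 1 library, with adjusted p up to 0.123. Smooth muscle marker sums went the other way and were lowest in DSS mice. They were 2900 to 3601 CPM in control, 1165 to 2220 in DSS and 2260 to 2316 in DSS + EA mice. Meg3 and Rian, maternally expressed imprinted hosts of microRNAs, passed in neither comparison. In all, 5 of 56 listed microRNA hosts were members, 3 higher with DSS (21.5% of all tested were) and 3 lower with EA (18.3% of all), with the values given above.

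AV026068 (chr8:57281117-57324233) overlaps Hand2, a transcription factor gene of stroma and enteric neurons, on the other strand. It had 13, 13 and 8 counts in control mice, 110, 152 and 103 in DSS mice and 14, 15 and 15 in DSS + EA mice, and the DSS mice stood apart with little spread among themselves. The log2FC was 3.22 ± 0.24 with DSS (adjusted p = 2.52e-05) and −2.78 ± 0.23 for DSS + EA against DSS (adjusted p = 0.000157). Hand2 itself rose by 1.50 ± 0.35 on the log2 scale (adjusted p = 0.00785) and was lower with EA (−1.44 ± 0.35, adjusted p = 0.0118). How the counting used strand is not given in the sources used here, so reads from overlapping genes may be shared. Gm36107 (log2FC 3.34 ± 0.31), ONT.5682 (3.55 ± 0.34) and Gm14167 (3.10 ± 0.31) rose in the same way and were lower with EA by 2.56 to 2.98 on the log2 scale. In the DSS mice the sums of fibroblast markers were 4193 to 6903 CPM, against 765 to 834 in control mice and 1653 to 1739 in DSS + EA mice. For neuronal and glial markers they were 251 to 379, against 109 to 147 and 83.1 to 105. The part of either cell type in these rises was not tested.

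**Figure D3:**
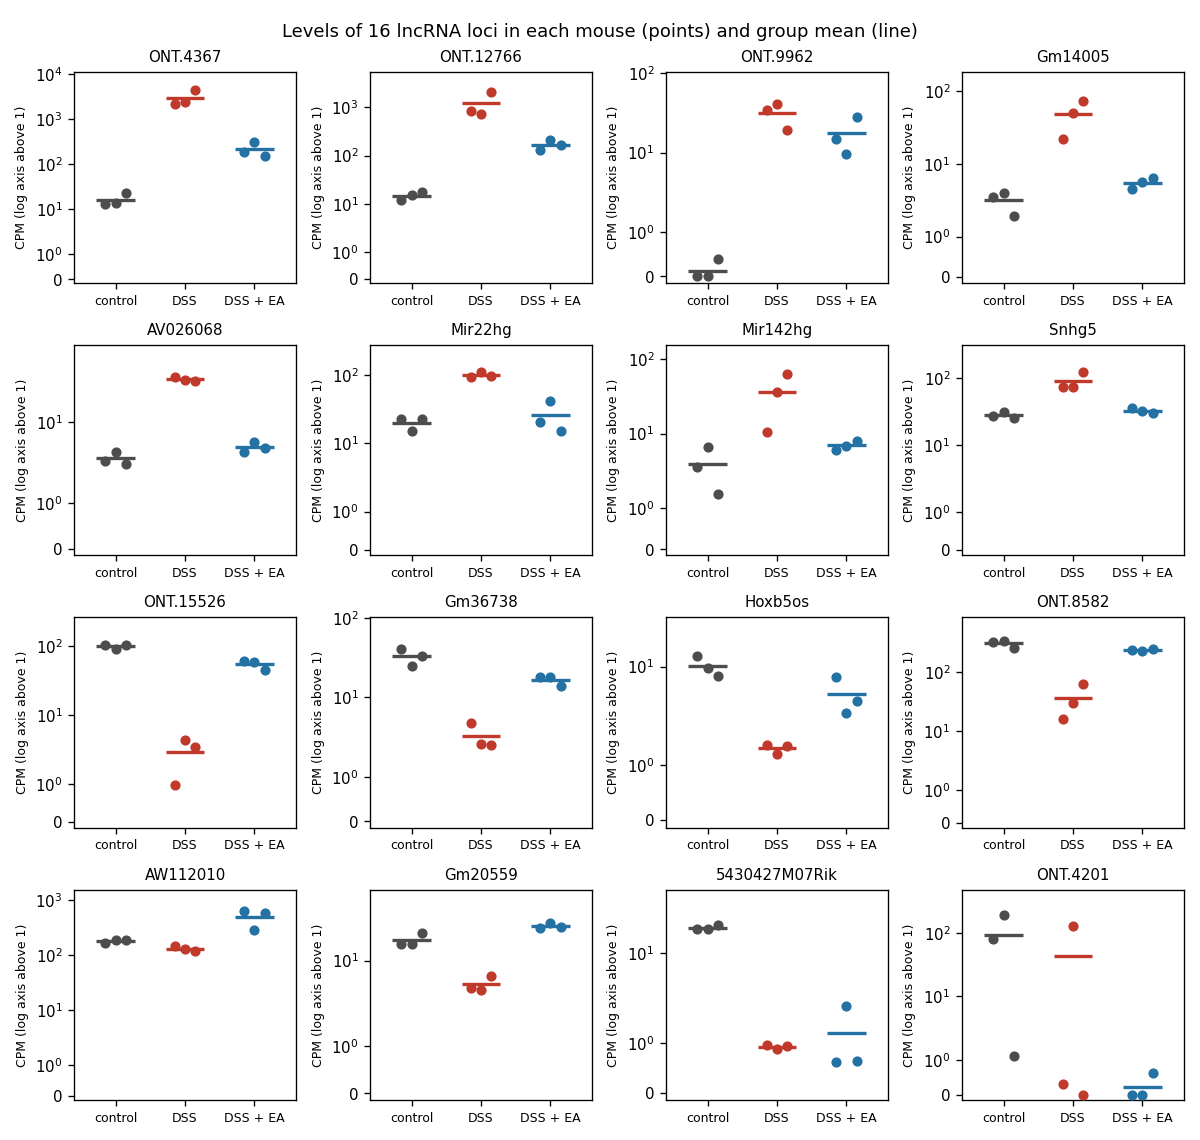
CPM of 16 lncRNA loci in each mouse (points, one per library) with the group mean (line), on an axis that is linear below 1 and logarithmic above. ONT.4367, Gm14005 and AV026068 are highest in all 3 DSS mice, ONT.15526 and Gm36738 are lowest there, AW112010 is highest in the DSS + EA mice, and ONT.4201 is high in control mice 1 and 2 and DSS mouse 2 only.

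The falls with DSS were more numerous. ONT.15526 had 410, 269 and 266 counts in control mice, 3, 20 and 11 in DSS mice and 196, 158 and 143 in DSS + EA mice. All 3 groups were apart, with DSS + EA mice between the others. It fell 32.3-fold with DSS (log2FC −5.01 ± 0.38, adjusted p = 3.06e-05) and was 17.9-fold higher in DSS + EA than in DSS mice (log2FC 4.16 ± 0.38, adjusted p = 0.00021). Gm36738 (chr15:78574411-78581616), a lincRNA with 161, 75 and 87, then 15, 12 and 8, then 59, 48 and 44 counts, fell by 3.33 ± 0.32 on the log2 scale and was higher by 2.34 ± 0.32 with EA (adjusted p = 9.28e-05 and 0.000983). ONT.16038 (−2.74 ± 0.25), 9230105E05Rik (−4.15 ± 0.40), which runs antisense to Hmga2, and 4732465J04Rik (−3.95 ± 0.39) fell with DSS as well and were higher by 2.07 to 2.95 with EA. Eldr, a lncRNA downstream of the epidermal growth factor receptor gene, had 49, 25 and 38 counts in control mice, 2, 4 and 4 in DSS mice and 30, 18 and 20 in DSS + EA mice (log2FC −3.63 ± 0.39 and 2.96 ± 0.40, adjusted p = 0.000154 and 0.000852). Of the most counted loci, ONT.8582 (−3.10 ± 0.41 with DSS, 2.71 ± 0.41 with EA) and ONT.1346 (−1.42 ± 0.34 and 1.60 ± 0.34) had the same course. Colonocyte and goblet cell markers were also lowest in the DSS group, goblet cell sums being 29681 to 56462 CPM in control, 1150 to 9023 in DSS and 21841 to 22820 in DSS + EA mice, and their part was not tested.

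ONT.6566, the locus with the second largest summed counts, had 7200, 5898 and 5701 counts in control mice, 1180, 4250 and 1206 in DSS mice and 2330, 472 and 3682 in DSS + EA mice. All control mice were above the rest, and the other groups overlapped widely. It was lower with DSS (log2FC −1.83 ± 0.58, adjusted p = 0.0302), a call that was lost in 5 of 9 fits with 1 library left out (adjusted p up to 0.0879), and gave 0.29 ± 0.57 for DSS + EA against DSS (adjusted p = 0.714).

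Transcripts from the HOX clusters, whose genes hold positional identity along the gut, and other antisense lncRNAs of gut and development were mixed. Of 37 listed, 10 were members, with 2 higher and 5 lower with DSS (21.5% and 19.5% of all tested) and 4 higher and 1 lower with EA (17.2% and 18.3% of all). Hoxb5os, which overlaps Hoxb6, had 50, 29 and 21 counts in control mice, 5, 6 and 5 in DSS mice and 26, 9 and 14 in DSS + EA mice (log2FC −2.76 ± 0.40 and 1.82 ± 0.42, adjusted p = 0.000724 and 0.00961). Hoxaas3 (−1.37 ± 0.29), Foxd2os (−1.70 ± 0.36) and 2610035D17Rik (−3.32 ± 0.51) also fell with DSS and were higher with EA by 1.01 to 1.77 on the log2 scale. Those 3 calls for EA were lost in 3 to 7 of 9 fits with 1 library left out, with adjusted p up to 0.113. Hotairm1, a HOXA transcript of myeloid cells, moved the other way. It had 36, 17 and 14 counts in control mice, 35, 123 and 93 in DSS mice and 15, 4 and 16 in DSS + EA mice (log2FC 1.71 ± 0.45 and −2.56 ± 0.48, adjusted p = 0.013 and 0.00365), and its DSS call was lost in 2 of 9 such fits (adjusted p up to 0.0533). The remaining calls in the list were Gm16136, antisense to the epithelial factor gene Grhl2 (−1.14 ± 0.37 with DSS, adjusted p = 0.0312, up to 0.0852 with 1 library left out), and 2010204K13Rik (1.15 ± 0.30, adjusted p = 0.0118, up to 0.0578).

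Some snoRNA hosts changed with DSS. The snoRNAs guide the modification of ribosomal RNA, and the spliced host is degraded or kept according to growth state. Of the 19 members that hold an annotated snoRNA, 5 rose (26.3%, against 21.5% of all tested) and 2 fell (10.5%, against 19.5%) in the DSS group, 15 of 19 fitted changes were above 0 (8 rose and 2 fell in DESeq2), and the median log2FC was 0.49, against 0.02 over all genes tested. In DSS + EA against DSS 7 fell (36.8%, against 18.3% of all tested), with a median of −0.53, against −0.02 over all, and 0 rose in edgeR (0 at an unadjusted p under 0.05 and 0 in DESeq2). In DSS + EA against control 0 passed in edgeR (0 higher and 1 lower at an unadjusted p under 0.05, 0 in DESeq2). Snhg5 had 107, 92 and 65 counts in control mice, 227, 333 and 395 in DSS mice and 116, 86 and 94 in DSS + EA mice. The DSS mice stood apart and the other groups overlapped. Its log2FC was 1.70 ± 0.24 with DSS (adjusted p = 0.000636) and −1.46 ± 0.24 with EA (adjusted p = 0.00204).

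Snhg6 (log2FC 1.02 ± 0.21, then −0.99 ± 0.21), Snhg10 (1.52 ± 0.43, then −2.21 ± 0.46) and Snhg20 (0.95 ± 0.27, then −1.30 ± 0.28) passed in both comparisons. Snhg8 passed with DSS (0.55 ± 0.20, adjusted p = 0.0493) and had an adjusted p of 0.0558 with EA (−0.54 ± 0.20). 2410006H16Rik, 1110038B12Rik and Epb41l4aos passed with EA (−0.85 ± 0.18, −0.69 ± 0.23 and −0.70 ± 0.21), with adjusted p of 0.0506, 0.0535 and 0.525 for DSS. The direction of Snhg18 with DSS was opposite (−0.83 ± 0.30, adjusted p = 0.0492), as was that of 2900076A07Rik (−1.11 ± 0.34, adjusted p = 0.0249). With 1 library left out, the DSS calls of Snhg8 and Snhg18 were each lost in 8 of 9 fits (adjusted p up to 0.168 and 0.149), those of Snhg20 in 3 and of Snhg10 in 1 (up to 0.0814 and 0.0512), the EA call of 1110038B12Rik in 7 (log2FC −0.40 without DSS mouse 1) and that of Epb41l4aos in 6 (adjusted p up to 0.109). Gas5, a growth-arrest transcript and the most counted host, had 1986, 1540 and 1108 counts in control mice, 2601, 2609 and 2023 in DSS mice and 1323, 1517 and 1372 in DSS + EA mice. It did not pass in either comparison (log2FC 0.50 ± 0.21, adjusted p = 0.0854, and −0.53 ± 0.21, adjusted p = 0.0727). Of 28 snoRNA hosts listed by symbol, 16 were members. With DSS 5 were higher and 1 lower (21.5% and 19.5% of all tested), and with EA 7 were lower (18.3% of all). The tract shown above was found in Snhg8, Snhg10, Snhg18, 2410006H16Rik and 1110038B12Rik among the called hosts, and not in Snhg5, Snhg20 or 2900076A07Rik.

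**Figure D4:**
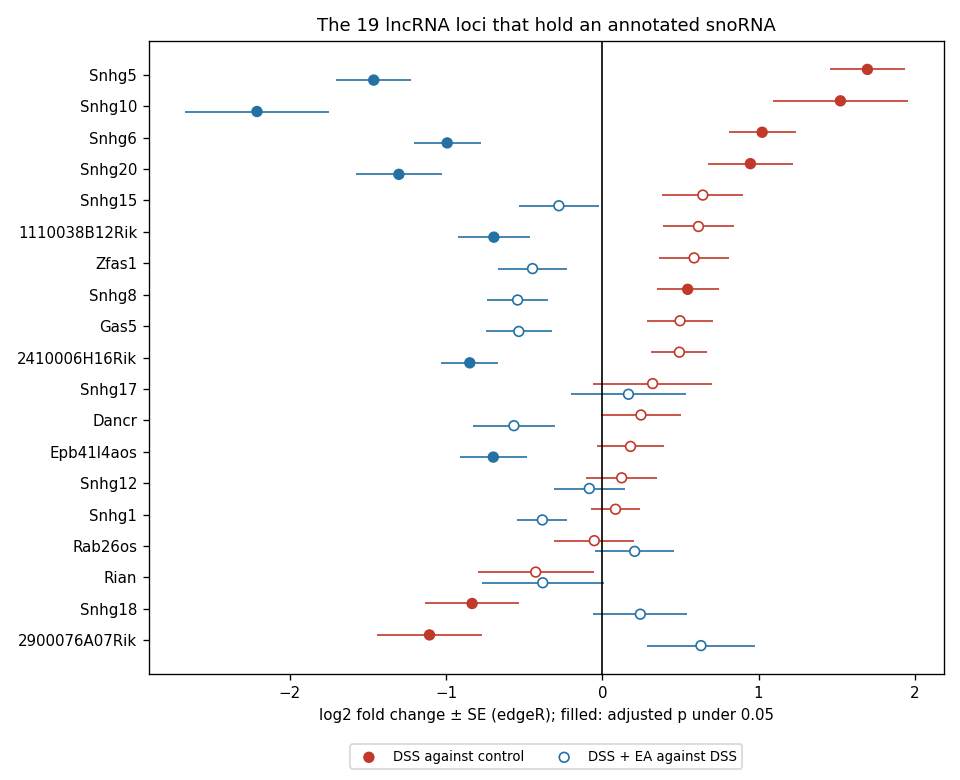
Log2 fold change ± SE of the 19 lncRNA loci that hold an annotated snoRNA, for DSS against control (red) and DSS + EA against DSS (blue), with filled points at an adjusted p under 0.05. Most red points lie to the right of 0 and most blue points to the left, and the 2 comparisons share the DSS mice.

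The second comparison asked what EA changed in mice given DSS. In DSS + EA against DSS 43 of 198 members (21.7%) were higher and 45 (22.7%) lower at an adjusted p under 0.05, against 17.2% and 18.3% of all genes and loci tested. Without DSS mouse 1, the number of higher members was 69, and without any other 1 library it was 36 to 42. The study's thresholds were passed by 33 members (16.7%), against 6.41% of all. The median log2FC was −0.02 over the members and −0.02 over all, and the median size of the change was 1.09 against 0.68. The DSS mice enter both comparisons, so the opposite signs given for single loci above are not independent of each other.

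Gm20559 and AW112010 had their highest levels in DSS + EA mice. Gm20559 had 61, 47 and 55 counts in control mice, 15, 21 and 21 in DSS mice and 80, 73 and 79 in DSS + EA mice. It was higher by 2.27 ± 0.24 on the log2 scale with EA (adjusted p = 0.000386) after a fall of 1.71 with DSS (log2FC −1.71 ± 0.24, adjusted p = 0.000618). In DSS + EA against control mice Gm20559 did not pass (log2FC 0.56, adjusted p = 0.235). Its nearest protein-coding gene, Samd9l, an interferon-induced gene 26129 bp away, went from 91 to 104 counts in control mice to 14 to 20 in DSS mice and 130 to 267 in DSS + EA mice (log2FC −2.62 ± 0.33 and 3.70 ± 0.34, adjusted p = 0.000339 and 0.000213). AW112010, a transcript induced by interferon gamma in immune cells, had 645, 557 and 492 counts in control mice, 445, 589 and 385 in DSS mice and 2031, 778 and 1832 in DSS + EA mice. It was 3.81-fold higher in DSS + EA than in DSS mice (log2FC 1.93 ± 0.27, adjusted p = 0.00106) and 2.77-fold higher than in control mice (1.47 ± 0.27, adjusted p = 0.0163). The change with DSS did not pass (−0.46 ± 0.26, adjusted p = 0.189). DSS + EA mouse 2, the lowest of its group, had the largest pancreatic marker sum, and the call against control was lost in 5 of 9 fits with 1 library left out (adjusted p up to 0.107).

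Of 50 listed immune and inflammatory lncRNAs 5 were members, with 3 higher and 1 lower with DSS (21.5% and 19.5% of all tested) and 1 higher and 2 lower with EA (17.2% and 18.3% of all). Beside AW112010, Gm14005 and Mir142hg these were 2310001H17Rik (log2FC −1.05 ± 0.36 with DSS, adjusted p = 0.0392, up to 0.0989 with 1 library left out) and Gm36161. The last had 3 counts in every control mouse, 3, 15 and 91 in DSS mice and 26, 18 and 60 in DSS + EA mice, so that its DSS call (adjusted p = 0.0385, up to 0.242 with 1 library left out) rested on DSS mouse 3 (log2FC 1.20 without it) and the groups overlapped. Of 17 listed transcripts of stress, growth and p53, 6 were members. With DSS 1 of the 6 was higher (Mir22hg), against 21.5% of all tested. With EA 2 of the 6 were lower (Mir22hg and Epb41l4aos), against 18.3% of all. Of 14 listed imprinted transcripts 2 were members (Meg3 and Rian). Lockd, a transcript downstream of the cell cycle inhibitor gene Cdkn1b, gave a log2FC of −0.50 ± 0.33 with DSS (adjusted p = 0.255).

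The third comparison set DSS + EA mice against control mice. At an adjusted p under 0.05, 6 members (3.03%) were higher and 3 (1.52%) lower, against 3% and 0.637% of all genes and loci tested, and 7 members passed the study's thresholds (2.08% of all did). The median log2FC was −0.37 over the tested members, against 0.002 over all genes and loci tested. The median size of the change was 0.62 against 0.34. The counts of calls are small and moved with the fit. DESeq2 called 12 higher and 12 lower, and edgeR on only these 2 groups 12 higher and 25 lower. With 1 library left out there were 3 to 9 higher and 1 to 10 lower, the fewest without control mouse 1 and the most without DSS mouse 1, and lower members numbered 7 without DSS mouse 2, 5 without DSS mouse 3 and 1 without control mouse 2, DSS + EA mouse 1 or DSS + EA mouse 3. Only ONT.4367, ONT.12766, ONT.9962, AW112010, 9530082P21Rik and ONT.14831 were higher, the last 2 named after their values were seen.

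ONT.9962 had 0, 0 and 1 counts in control mice, 106, 187 and 62 in DSS mice and 49, 26 and 87 in DSS + EA mice. It was at least 27.3-fold higher in DSS and at least 15.1-fold higher in DSS + EA than in control mice, taking 3 counts in a library as the floor, and the DSS and DSS + EA groups overlapped. ONT.14831 had 0, 0 and 5 counts in control mice, 5, 4 and 3 in DSS mice and 48, 45 and 47 in DSS + EA mice, the groups with and without EA being far apart (log2FC 3.75 ± 0.66 against DSS, adjusted p = 0.00272, and 4.74 ± 0.75 against control, adjusted p = 0.00935). Pancreatic marker sums of DSS + EA mice 1 to 3 were 638, 38057 and 18355 CPM, and the part of pancreatic tissue was not tested. 9530082P21Rik, antisense to Kremen2, had 27, 12 and 16 counts, then 6, 25 and 11, then 62, 52 and 83 (log2FC 2.53 ± 0.37 against DSS and 1.91 ± 0.36 against control, adjusted p = 0.0012 and 0.0178).

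Of the 3 lower loci, 5430427M07Rik (chr12:91045848-91079907), antisense to the centriole gene Cep128, had 74, 56 and 54 counts in control mice, 3, 4 and 3 in DSS mice and 2, 7 and 2 in DSS + EA mice. It fell 20.3-fold with DSS (log2FC −4.34 ± 0.44, adjusted p = 0.000125) and remained 15.3-fold lower in DSS + EA mice (−3.94 ± 0.44, adjusted p = 0.00261), while DSS + EA and DSS mice overlapped (0.40 ± 0.58, adjusted p = 0.634). Cep128 itself gave 0.25 on the log2 scale with DSS (adjusted p = 0.667). ONT.8495 had 54, 44 and 37 counts in control mice, 3, 4 and 6 in DSS mice and 14, 17 and 10 in DSS + EA mice, a log2FC of −1.63 ± 0.33 against control (adjusted p = 0.0259, up to 0.131 with 1 library left out). The other was ONT.4207.

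ONT.4207 belonged to 6 loci with neighbouring numbers (ONT.4199, ONT.4201, ONT.4203, ONT.4205, ONT.4206 and ONT.4207) that split the mice in another way. Summed over these 6 loci, named after their values were seen, there were 851 and 2557 counts in control mice 1 and 2 and 22 in control mouse 3, 1115 in DSS mouse 2 and 5 and 4 in DSS mice 1 and 3, and 19, 4 and 7 in DSS + EA mice. ONT.4201 alone had 314, 588 and 3, then 1, 597 and 0, then 0, 0 and 2. The high mice came from 2 groups, and within each of those groups the high and low mice lay far apart. The B and plasma cell marker sums of mice 1 to 3 were 1671, 2983 and 2132 CPM in the control group. They were 464, 578 and 196 CPM in the DSS group and 928, 477 and 862 CPM in the DSS + EA group. The part of these cells was not tested. With 1 library left out, the call for ONT.4207 against control was lost in 5 of 9 fits (adjusted p up to 0.176). In all, 11 members had more of their summed CPM in 1 library than in the other 8 together, among them ONT.14142 (652 of its 668 counts in control mouse 2) and ONT.3801 (212 counts in DSS mouse 3, with 35 and 89 in DSS mice 1 and 2). ONT.14142 and ONT.12800 were left untested by the filter on low counts.

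Position gave a further description. Of the 106 members with a position, 44 overlap a protein-coding gene, 42 of them on the opposite strand. For 80 members the overlapping or nearest protein-coding gene was tested too, and with DSS the fitted changes of both had the same sign in 52 of 80 pairs (65%), against 52.9% of 7230 pairs of a protein-coding gene and its nearest one. The share was 62.2% in the 45 pairs that do not overlap. For DSS + EA against DSS the share over the 80 pairs was 58.75% against 54.3%, and for DSS + EA against control 57.5% against 54.6%. The 80 pairs lay a median of 71.5 bp apart, and 35 of them overlap. The protein-coding pairs were not matched to them in distance or overlap, and the part of either was not tested. Both partners passed the test with DSS in 12 of 80 pairs (15%), 10 of them in the same direction. Among the protein-coding pairs both passed in 15.1%, and 690 of those 1092 (63.2%) had the same direction. In DSS + EA against DSS both passed in 6 of 80 pairs (7.5%), against 11.8% of the protein-coding pairs. The direction was the same in 4 of those 6, against 541 of 851 (63.6%). The 10 pairs with DSS were Gm14005 with Bcl2l11, AV026068 with Hand2 and C920021L13Rik with BC028528 (higher), and Gm20559 with Samd9l, Gm15401 with Tcf7l1, Gm14207 with the Notch ligand gene Dll4, Gm14097 with Shld1, Gm16136 with Grhl2, 2310001H17Rik with Clec2d and Gt(ROSA)26Sor with Thumpd3 (lower).

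The 2 exceptions were Lppos, which fell (log2FC −1.67 ± 0.35) where Lpp on the other strand rose (1.14 ± 0.21), and Gm36738. The latter lies 1628 bp from Rac2, a gene of leukocytes, on the same strand, and fell where Rac2 rose (3.30 ± 0.76, adjusted p = 0.00694). Rac2 had 54, 56 and 38 counts in control mice, 78, 404 and 1121 in DSS mice and 117, 90 and 118 in DSS + EA mice, so that in DSS mouse 1 the rise was small, while Gm36738 was low in all 3 DSS mice.

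**Figure D5:**
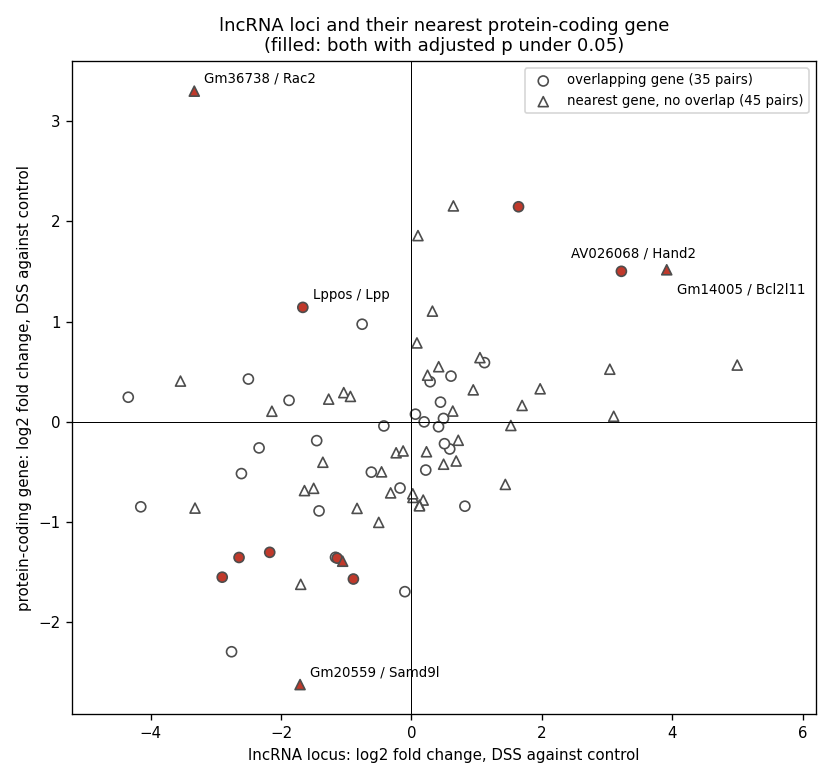
Log2 fold change with DSS of 80 lncRNA loci (x axis) and of the protein-coding gene that overlaps them (circles, 35 pairs) or lies nearest (triangles, 45 pairs) on the y axis, with filled symbols where both had an adjusted p under 0.05. Of the 12 filled pairs 10 lie in the lower left or upper right, and Gm36738 with Rac2 and Lppos with Lpp lie in the upper left.

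The promoters were searched for 5 short motifs in both strands, from 250 bases before to 50 bases after the RefSeq start, in the 78 members that had one. TGACTCA, the AP-1 site, was present in 5 of 78 (6.41%) and in 5.17% of all 27025 promoters. TTTATGG, a site of CDX and HOX factors, was present in 3 of 78 (3.85%) and in 2.76% of all, and TTCCNGGAA, the STAT site, in 1 (that of Gm36738) and in 1.15% of all. GGGANTTTC, letters of the NF-kB site, and CAAAGTCCA, those of an HNF4 site, were in none of the 78 and in 1.15% and 0.477% of all. Matches of different motifs may overlap and were counted for each motif. Among the 13 members higher with DSS the AP-1 letters stood in 1 promoter, and among the 20 lower ones in 2. No match says only that these letters are not in the window.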

How the data were processed

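Colon RNA of 9 mice was reverse transcribed, amplified and read as full-length cDNA on Nanopore flow cells. The deposited table holds raw counts per gene or locus for each library, made by the authors, together with their gene type and identifiers. The submitters' processing notes name genome build mm10, and the aligner, the counter, its use of strand and the method that found new loci are not given in the sources used here. Annotation and neighbours came from GENCODE M21 and sequences from RefSeq (GRCm38.p6), matched by identifier or symbol.

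Counts of all genes and loci were fitted with edgeR 4.0.16 (quasi-likelihood test, TMM, filterByExpr by group, default prior count) in R 4.3.3, with the 3 groups and no other term. The filter kept 12566 genes and loci, over which p-values were adjusted by Benjamini-Hochberg, and calls are adjusted p under 0.05. The study's methods name DESeq2 with log2FC beyond 2.5 and unadjusted P under 0.01, and these thresholds were applied to the same fit. On simulated data for DSS against control, 90% of 200 changed genes were recovered, 0 of them in the wrong direction. Among the 12566 genes, 9 unchanged ones were called. The values hold for that setting only. In the measured data 2698 genes and loci were called higher with DSS and 2446 lower. Recovery with that many changed genes, or by size of change or spread of a locus, was not tested. At the depth of these libraries 3 counts, used as the floor, equal 0.652 to 1.15 CPM. This floor covers counting error only, since PCR copies are not independent molecules.

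Named loci were the 10 most counted, in each direction of DSS against control and of DSS + EA against DSS the 5 loci of smallest P whose groups did not overlap, the 3 in each direction of DSS + EA against control, those in lists of lncRNAs by role, and the loci at the rank limit. Members, lists and rule were chosen with earlier results of these data known. Alternatives were DESeq2 1.42.0, RLE scaling, library totals, other filters and priors, only the 2 groups compared, a replicate block and leaving out each library.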

Additional observations from a re-analysis of the deposited data

How the results depend on the processing

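Counts of called loci in DSS against control and in DSS + EA against DSS stayed within 1.5 times the reported ones under DESeq2, RLE scaling, library totals, no filter, a mean of at least 20 counts, prior count 2 and the fit of only the 2 groups compared. At an adjusted p under 0.01, 43 loci were lower with DSS, 28 were lower in DSS + EA than in DSS mice and 1 was lower than in control mice. For DSS + EA against control, DESeq2 called 12 higher and 12 lower, and the fit of only the 2 groups called 12 higher and 25 lower. With 1 library left out, DSS against control gave 30 to 43 higher and 47 to 74 lower, DSS + EA against DSS 36 to 69 higher and 32 to 48 lower, and DSS + EA against control 3 to 9 higher and 1 to 10 lower. The study's thresholds were passed by 42 to 60 and by 27 to 44 loci. The difference in the share of counts, 0.268 percentage points for DSS against control, ran from 0.179 to 0.322, and for DSS + EA against DSS from −0.501 to −0.358, and for DSS + EA against control from −0.204 to −0.153. Without ONT.4367 it reversed to −0.0307 for DSS against control, and it was −0.167 for DSS + EA against DSS and −0.198 for DSS + EA against control. Without ONT.4367 and ONT.6566 together it was 0.108 for DSS against control.

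Replicate numbers did not pair the mice, since same-numbered mice deviated together with correlations of −0.160 to 0.105. With the replicate number as a block, 37 loci were higher and 58 lower with DSS, and 42 higher and 43 lower with EA. Among the fits of single named loci under all settings, 2666 stayed on their side of the threshold, 118 lost the call and 48 gained it. The sign changed in 0 of 1335 fits of changes that had been called and in 49 of 1497 fits of changes that had not. The cause of these losses was not tested.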
